A study of Mus musculus with 10 samples.

Results

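The genes described here regulate programmed cell death: the Bcl2 family, caspases, death receptors with their adaptors, and the inhibitor of apoptosis proteins. Of 37 listed genes, 35 were measured among 30142 genes. A gene counted as measured when a row of the deposited table was annotated with its symbol alone, and the row with the highest mean over the 10 arrays was used. Bax and Ripk1 had no such row and are not analysed here. Affymetrix ClariomD (MTA-1.0) arrays were hybridised with RNA of luminal epithelial cells, sorted from prostates of male mice. All mice carried Hoxb13-rtTA and TetO-H2BGFP, in which the promoter of the prostate homeobox gene Hoxb13 drives a doxycycline-dependent histone-bound fluorescent protein, and all drank doxycycline at 2 mg/ml for 1 week. Cells were gated for that fluorescence, CD24 and intermediate CD49f, and against CD45, CD11b and the macrophage antigen encoded by Adgre1. Regenerated mice (n = 4) lost their testes at an age of 12 weeks, regressed for 6 weeks and then received testosterone for 4 weeks from silastic implants under the skin. Castrated mice (n = 3) had the same surgery at the same age with 6 weeks of regression and no testosterone, and intact mice (n = 3) had neither. Arrays of a group are biological replicates per the labels, which leave unsaid how many animals each represents, and p-values reflect the spread among these arrays alone.

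Apoptosis, the death of a cell by its own proteases, is reached by a mitochondrial route or a death receptor route. In the mitochondrial route, BH3-only proteins set free or activate the pore effectors Bax, Bak1 and Bok, anti-apoptotic members such as Bcl2 and Mcl1 hold them back, and released cytochrome c assembles Apaf1 and Casp9 into the apoptosome. In the death receptor route, ligands such as Tnfsf10 (TRAIL) bind receptors that recruit Fadd and Casp8, with Cflar as a brake. The prostate depends on androgen for its upkeep, and loss of testicular androgen is known to cause apoptosis of many of its luminal cells.

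Values are log2 RMA intensities, changes are differences of group means with their standard error (SE) from limma, and a gene is called where its Benjamini-Hochberg adjusted p over all 30142 genes is under 0.05. Krt8, Krt18, Epcam and Cd24a, genes of luminal epithelium, had means from 14.01 to 18.51 in the 3 groups. Luminal markers moved with castration too: Krt8, Krt18 and Cd24a were higher in castrated than in intact arrays by 1.37, 1.41 and 1.72 log2 (limma adjusted p = 0.0364, 0.00119 and 0.00358), and Hoxb13 was lower (-2.65 log2, 0.00416), 4 of 6 measured. The Krt8 call ended without intact replicate 1, 2 or 3, castrated replicate 1 or 2 or regenerated replicate 3 (0.0544 to 0.126). In regenerated arrays Krt8 and Krt18 were lower than in castrated arrays (-2.05 and -1.69 log2). The luminal markers Hoxb13 and Pbsn were higher there (1.74 and 1.55 log2, limma adjusted p = 0.0321 and 0.000871). That Hoxb13 call ended without intact replicate 1 or 2, castrated replicate 1, 2 or 3 or regenerated replicate 1, 2 or 3 (0.0537 to 0.105). The part of these shifts in the regulators' changes was not tested. Hoxb13, whose promoter the sort depends on, averaged 9.47 in regenerated, 7.74 in castrated and 10.39 in intact arrays. Across the 23 control rows for background, the median was 3.03, with a 95th percentile of 4.77 and a highest value of 6.40. Of the 35 regulators, 16 had all 3 group means at or under that highest value and 4 (Bbc3, Bcl2l15, Ripk3 and Casp1) at or under the 95th percentile, where changes can be compressed. Regenerated replicate 4 stood apart on the first principal component of all genes, at 3.03 against -30.98 to -23.23 for the other regenerated arrays, and its Hoxb13 value of 8.26 was the lowest of the 4.

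Casp4 was the regulator with the largest difference between castrated and intact mice. It encodes an inflammatory caspase, the mouse protein also known as caspase-11, which binds bacterial lipopolysaccharide in the cytosol and cleaves gasdermin D. Its values were 9.58, 11.16 and 10.41 in castrated arrays, against 5.54, 5.76 and 4.96 in intact arrays. Every castrated array lay far above every intact array. The change was 4.96 ± 0.54 log2 (SE), a 31.2-fold higher level, with a limma adjusted p of 0.000545. In regenerated arrays Casp4 was 5.20, 6.06, 5.78 and 7.43, which was 4.26 ± 0.50 log2 below castrated arrays (limma adjusted p = 0.00111). Replicate 4 was the highest of these and still lay under the lowest castrated array. The regenerated and intact means lie within the range of background rows, where a fold change can be understated.

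Tnfsf10, the death ligand TRAIL, moved in the same directions with little spread. It was 5.40, 5.35 and 5.79 in castrated arrays, against 3.62, 3.71 and 3.64 in intact arrays. The regenerated values were 3.65, 3.60, 3.72 and 3.56, overlapping the intact ones and apart from the castrated ones. Castrated arrays were 1.86 ± 0.11 log2 (3.62-fold) above intact arrays (limma adjusted p = 2.79e-05), and regenerated arrays 1.88 ± 0.11 log2 below castrated arrays (adjusted p = 1.43e-05). Regenerated and intact levels sit near the background median, and the castrated values lie above its 95th percentile but under its highest value.

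The 250 bases before the transcription start of Casp4 and Tnfsf10 are shown because these are the regulators with the largest change and the smallest adjusted p, and that of Bcl2l11, the BH3-only gene Bim, because it shares a motif with Casp4, a choice made after its values were seen. They are written 5′ to 3′ in the direction of the gene, from RefSeq on GRCm38.p6, and capitals mark a match to the forkhead motif.
Casp4 (chr9:5308599-5308848, plus strand): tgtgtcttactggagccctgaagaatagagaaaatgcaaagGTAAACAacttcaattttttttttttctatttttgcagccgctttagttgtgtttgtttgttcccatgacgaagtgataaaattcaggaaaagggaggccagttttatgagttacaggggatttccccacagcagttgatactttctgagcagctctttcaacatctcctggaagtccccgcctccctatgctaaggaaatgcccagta
Tnfsf10 (chr3:27316827-27317076, plus strand): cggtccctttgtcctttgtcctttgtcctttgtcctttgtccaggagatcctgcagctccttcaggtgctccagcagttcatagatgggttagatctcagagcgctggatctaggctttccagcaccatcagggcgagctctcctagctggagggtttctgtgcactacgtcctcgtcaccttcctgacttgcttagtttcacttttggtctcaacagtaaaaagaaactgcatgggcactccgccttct
Bcl2l11 (chr2:128125788-128126037, plus strand): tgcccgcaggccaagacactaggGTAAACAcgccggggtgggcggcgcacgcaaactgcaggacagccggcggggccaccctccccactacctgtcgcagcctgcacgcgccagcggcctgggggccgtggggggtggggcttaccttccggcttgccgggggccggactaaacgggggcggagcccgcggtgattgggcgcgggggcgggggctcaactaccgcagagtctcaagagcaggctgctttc
Promoters of 31 measured regulators were in the reference table, 44 starts in all, and 5 motifs were searched on both strands. The forkhead motif GTAAACA, bound by Foxo factors, was found in 4 of 44 promoters and in 3.17% of all 32851. These were the overlapping windows of both Casp4 starts, which hold the same match, and 1 start each of Bcl2l11 and Bbc3, whose other starts had none. The interferon motif ISRE (GAAA, 2 bases of any kind, GAAA) was found in none of the 44, against 2.98% of all. The androgen response element (GNACA, 3 bases of any kind, TGTNC) was found in none, against 0.387%. The GAS motif TTCNNNGAA was found upstream of Fas and Tnfrsf1a (7.02% of all). For NF-kB only the letters GGGA, 3 bases of any kind, TCC were searched, and found upstream of Bak1 and Xiap (3.86% of all). Other forms of the NF-kB, ISRE and androgen motifs were not searched. The Casp4 stretch gggatttccc, which ends in CCC rather than TCC, was therefore not counted. Nor was the Tnfsf10 stretch tttcactttt, whose last letter differs from the ISRE on the reverse strand (TTTC, 2 bases of any kind, TTTC). These motifs did not overlap one another in the sequences shown, and a match describes letters, not a binding site.

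Among the 35 regulators, 7 rose in castrated mice and none fell (20.0%), where limma called 8.01% of all genes, 4.82% higher and 3.19% lower. Among genes with a mean above the background 95th percentile the shares were closer, with 7 of 28 regulators called (25%, 6 higher and 1 lower) and 20.5% of all genes. Without that filter, the regulators called besides Casp4 and Tnfsf10 were Casp8, Bcl2l14, Bok, Pmaip1 and Bid. The filter removed Tnfsf10, Bok and Pmaip1 from testing, and with it Mcl1, Bik and Casp2 were called. The groups of arrays did not overlap in 18 regulators (51.4%), 13 with castrated arrays higher and 5 with them lower, against 28.9% of all genes (17.4% higher, 11.5% lower). The median change was 0.22 log2 over the regulators and 0.04 over all genes, and the median size of change 0.33 and 0.15. An unadjusted p under 0.05 was reached by 15 regulators (42.9%) and 20.7% of all genes. In sorted cells, fewer cells of a type and less RNA per cell cannot be told apart.

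**Figure D1:**
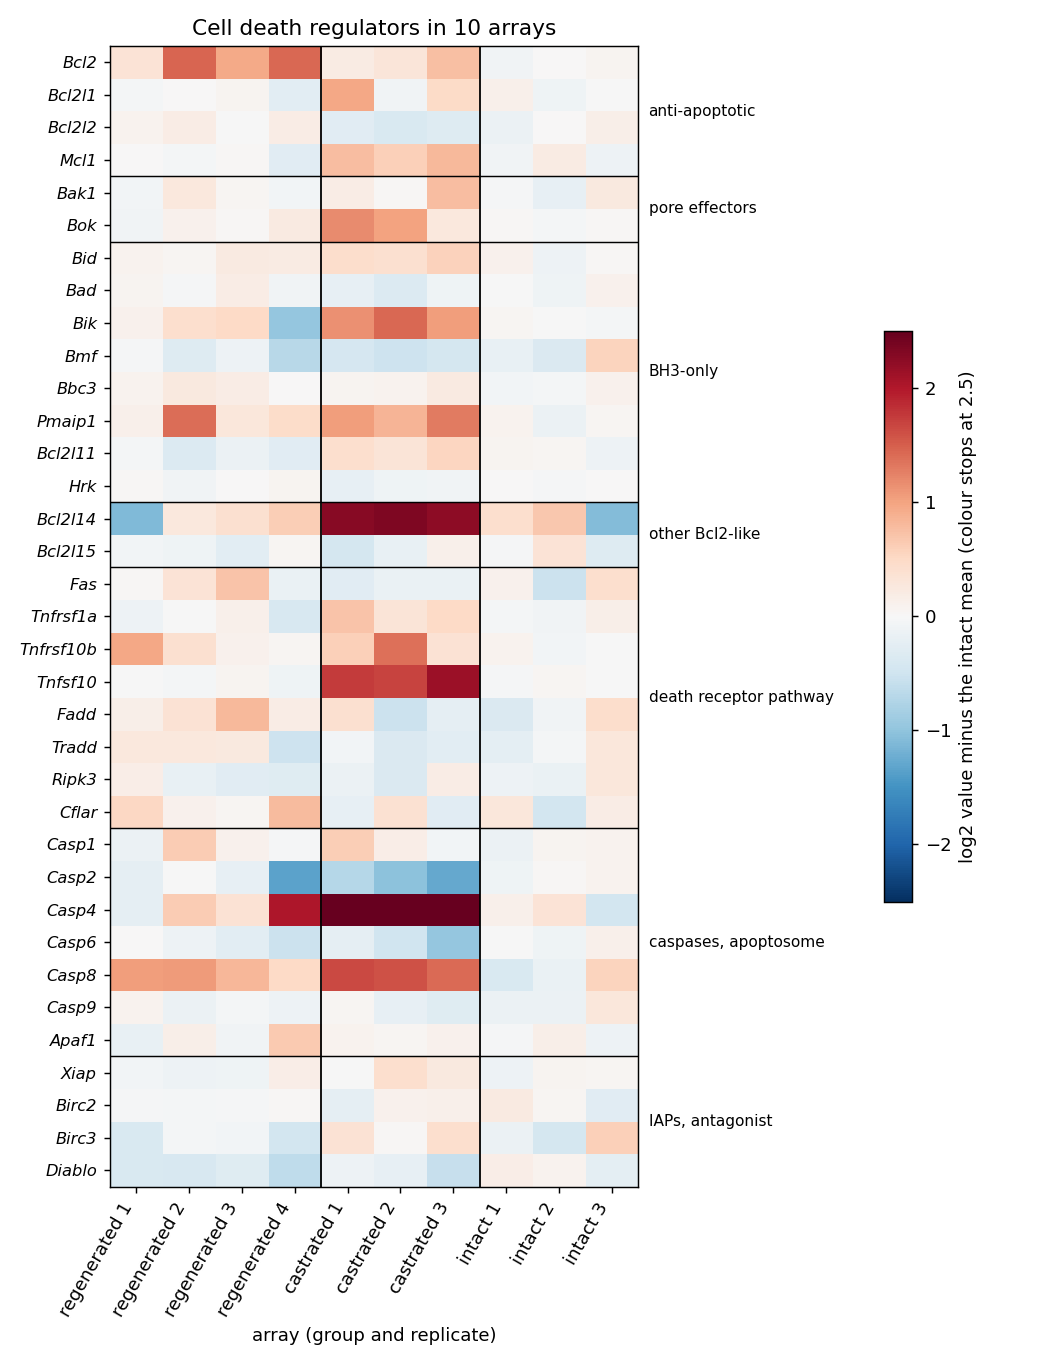
Log2 value of each of 35 regulators minus its mean in intact arrays, by array (columns, regenerated then castrated then intact) and by role (row blocks); colour stops at 2.5. The 3 castrated columns stand out most at Casp4, Bcl2l14, Tnfsf10 and Casp8, and regenerated replicate 4 differs from the other regenerated columns at Casp4, Casp2 and Bik.

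In the death receptor route, 1 of 8 measured genes (12.5%) was called in castrated mice, against 8.01% of all genes. This was the ligand Tnfsf10, which rose, and the receptors did not pass. Tnfrsf10b, the mouse receptor of TRAIL, was 5.36, 6.14 and 5.13 in castrated arrays, against 4.84, 4.69 and 4.75 in intact arrays (0.78 ± 0.28 log2, limma adjusted p = 0.133). Castrated and intact arrays did not overlap, and the 4 regenerated arrays spanned 4.81 to 5.72. Tnfrsf1a, the main receptor of tumour necrosis factor, was 7.38, 6.99 and 7.16 in castrated arrays, against 6.61, 6.57 and 6.81 in intact arrays (0.51 ± 0.18 log2, adjusted p = 0.128). Here too the groups did not overlap. Fas, the receptor of Fas ligand, was 7.04 ± 0.07 (SD, n = 3) in castrated and 7.25 ± 0.49 (n = 3) in intact arrays, with a 95% interval of the change from -0.83 to 0.42. The adaptors Fadd and Tradd changed by -0.12 ± 0.28 and -0.23 ± 0.25 log2, with overlapping arrays. Ripk3, a kinase of necroptosis, stayed at or under 5.01 in every array.

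Casp8, the initiator caspase that death receptors recruit, rose in castrated mice, and its brake Cflar did not pass the test. Casp8 was 9.40, 9.35 and 9.17 in castrated arrays, against 7.37, 7.58 and 8.31 in intact arrays. All castrated arrays were above all intact arrays, and intact replicate 3 stood above the other intact arrays. The change was 1.55 ± 0.27 log2 (2.93-fold, limma adjusted p = 0.00639). Cflar, a close neighbour of Casp8 on chromosome 1 in RefSeq, was 8.52, 9.10 and 8.45 in castrated arrays, against 9.00, 8.26 and 8.91 in intact arrays (-0.03 ± 0.30 log2, adjusted p = 0.971). The identifier of the Cflar row used (TC0300001892.mm.1) carries another chromosome number, and the other Cflar row (TC0100000439.mm.1), whose identifier carries chromosome 1, gave -0.11 ± 0.27 log2 with an adjusted p of 0.91 among all non-control rows.

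Of the other caspases and Apaf1, 5 genes in all, none passed. Casp2, a caspase linked to DNA damage, was 7.45, 7.14 and 6.89 in castrated arrays, against 8.07, 8.19 and 8.25 in intact arrays, a difference of -1.01 ± 0.32 log2 that did not pass (limma adjusted p = 0.0888). Its castrated arrays were all below its intact arrays. Casp6, an effector caspase, was 9.93, 9.65 and 9.19 in castrated arrays, against 10.13, 10.04 and 10.27 in intact arrays (-0.56 ± 0.25 log2, adjusted p = 0.232). Casp9 and Apaf1, the parts of the apoptosome, changed by -0.15 ± 0.17 and 0.08 ± 0.19 log2. Casp1, which activates interleukin-1 beta and lies beside Casp4 on chromosome 9 in RefSeq, was at 3.80 ± 0.35 (SD, n = 3) in castrated and 3.56 ± 0.13 (n = 3) in intact arrays, within the background range. Whether probes of neighbouring caspase genes cross-hybridise was not tested.

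Of the Bcl2 family, the anti-apoptotic genes and the BH3-only genes are given by role. None of the 4 anti-apoptotic genes passed in castrated mice, where Mcl1 came closest: 10.34, 10.17 and 10.39 in castrated arrays, against 9.49, 9.78 and 9.44 in intact arrays (0.73 ± 0.20 log2, limma adjusted p = 0.0556). The Mcl1 arrays did not overlap, and without regenerated replicate 4 the adjusted p was under the threshold. Bcl2l1, the gene of Bcl-xL, was 9.71, 8.66 and 9.23 in castrated arrays, against 8.88, 8.63 and 8.73 in intact arrays, and these overlapped (0.45 ± 0.26 log2, adjusted p = 0.386). Bcl2 changed by 0.42 ± 0.29 and Bcl2l2 by -0.33 ± 0.14 log2, neither past the threshold.

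Of 8 BH3-only genes, 2 rose and none fell (25%, against 8.01% of all genes, 4.82% higher and 3.19% lower). Pmaip1, the gene of Noxa, which binds Mcl1, was 5.24, 5.04 and 5.49 in castrated arrays, against 4.26, 4.04 and 4.24 in intact arrays (1.07 ± 0.28 log2, limma adjusted p = 0.0397). Bid, which Casp8 cleaves to link the receptor route to the mitochondrial one, was 5.77, 5.73 and 5.90 in castrated arrays, against 5.43, 5.19 and 5.35 in intact arrays (0.47 ± 0.12 log2, adjusted p = 0.0347). For both genes the 2 groups were apart, at values under the highest background value. Bik had a larger estimate that did not pass: 8.27, 8.56 and 8.18 in castrated arrays, against 7.19, 7.13 and 7.07 in intact arrays (1.21 ± 0.34 log2, adjusted p = 0.0553). Without regenerated replicate 4, the lowest array for Bik at 6.16, Bik, Mcl1 and Casp2 also passed, 10 regulators in all. The share of all genes called ran from 3.38% to 10.9% with 1 array left out. Bcl2l11 changed by 0.43 ± 0.15 log2 (adjusted p = 0.13), and Bad, Bmf and Hrk had estimates of -0.22, -0.46 and -0.13 log2 without passing. Bbc3, the gene of Puma, changed by 0.12 ± 0.10 log2.

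Of the pore effectors, Bok rose and Bak1 did not pass. Bok was 5.58, 5.41 and 4.67 in castrated arrays, against 4.42, 4.35 and 4.42 in intact arrays (0.82 ± 0.20 log2, limma adjusted p = 0.0308). Castrated replicate 3 was only just above the intact arrays. Bak1 was 5.47, 5.31 and 6.04 in castrated arrays, against 5.24, 5.08 and 5.52 in intact arrays (0.33 ± 0.20 log2, adjusted p = 0.402). Bcl2l14, a Bcl2 family member also called Bcl-G, was 9.32, 9.38 and 9.27 in castrated arrays, against 7.47, 7.71 and 5.95 in intact arrays (2.28 ± 0.50 log2, adjusted p = 0.0201). Its castrated arrays lay close together, whereas intact replicate 3 was well below the other intact arrays. Bcl2l15 changed by -0.16 ± 0.18 log2, with overlapping arrays.

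The inhibitor of apoptosis genes showed no call. Xiap, which blocks caspases directly, changed by 0.22 ± 0.16 log2, Birc2 by 0.01 ± 0.20 and Birc3 by 0.27 ± 0.27 (limma adjusted p = 0.513, 0.99 and 0.664). Diablo, the mitochondrial protein that antagonises them, changed by -0.31 ± 0.19 log2 (adjusted p = 0.416). The 95% intervals of these 4 changes ran from -0.73 at the lowest to 0.88 at the highest.

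**Figure D2:**
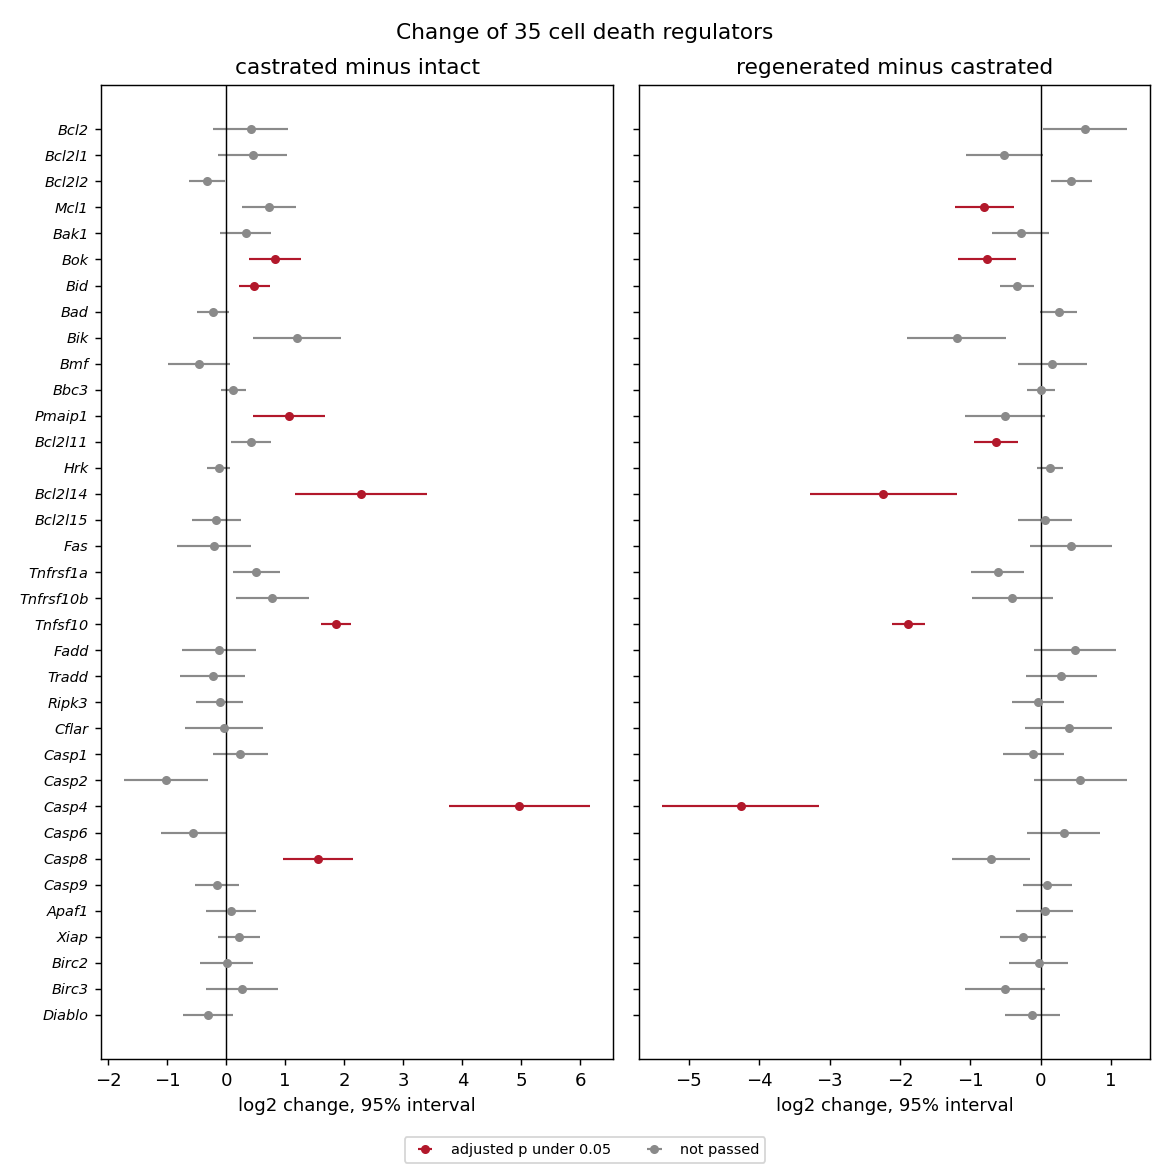
Fitted log2 change of each of 35 regulators with its 95% interval, castrated minus intact on the left and regenerated minus castrated on the right, red where the adjusted p is under 0.05. The 7 red points on the left are all above 0 and the 6 on the right all below 0, with Casp4 farthest out at 4.96 and -4.26.

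Several of these calls were lost with 1 array left out, while the estimates kept their direction. Casp4, Tnfsf10 and Casp8 kept their calls with any 1 array left out, with adjusted p up to 0.00418, 0.000467 and 0.0373 over all alternatives run for them. The call of Bcl2l14 ended without castrated replicate 1, 2 or 3 (limma adjusted p from 0.054 to 0.0634), that of Bok without intact replicate 1, 2 or 3 or castrated replicate 1 or 2 (0.0695 to 0.107), and those of Bid and Pmaip1 without any 1 intact or castrated array or regenerated replicate 3 (0.0513 to 0.146 for Bid, 0.0503 to 0.133 for Pmaip1). Leaving out 1 array gave 3 to 10 called regulators, and 3.38% to 10.9% of all genes.

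**Figure D3:**
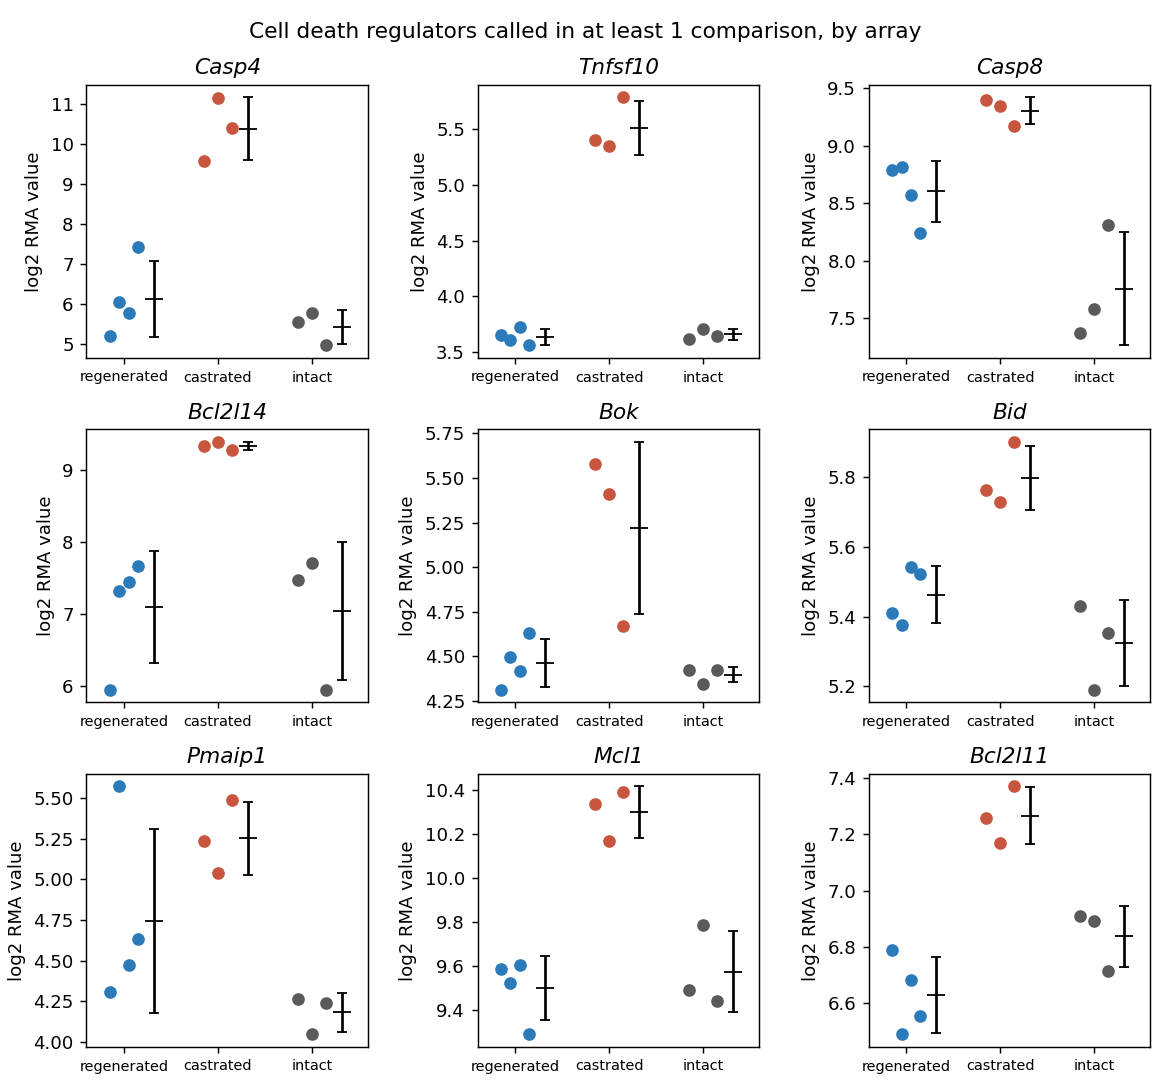
Log2 RMA value of the 9 regulators called in at least 1 comparison, a point per array, with the mean and SD of each group beside it (4 regenerated, 3 castrated, 3 intact); each panel has its own axis, which does not start at 0. Castrated points lie above all intact points in the 9 panels, and regenerated points below all castrated points in each panel but Pmaip1.

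With testosterone given after regression, 6 of 35 regulators (17.1%) fell relative to castrated mice and none rose, where limma called 4.98% of all genes, 1.97% higher and 3.01% lower. Among genes with a mean above the background 95th percentile, 6 of 28 regulators (21.4%) and 14% of all genes were called. Arrays of the 2 groups did not overlap in 14 regulators (40.0%, against 16% of all genes), 11 with regenerated arrays lower (9.51% of all genes) and 3 with them higher (6.53%). The median change was -0.10 log2 over the regulators and -0.01 over all genes. Both comparisons use the same castrated arrays, so a gene high in them tends to appear in both. No group kept castrated for the full period went without the implant, and time since castration and age cannot be told apart from testosterone.

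Casp4 and Tnfsf10 are given above, and the other 4 genes that fell were Bcl2l14, Mcl1, Bok and Bcl2l11. Bcl2l14 was 5.95, 7.32, 7.44 and 7.66 in regenerated arrays, below its castrated values of 9.27 to 9.38 (-2.24 ± 0.47 log2, limma adjusted p = 0.0228). Mcl1 was 9.59, 9.52, 9.60 and 9.29 in regenerated arrays, all below the lowest castrated array (-0.80 ± 0.19 log2, adjusted p = 0.0394). Bok was 4.31, 4.50, 4.42 and 4.63 in regenerated arrays, the highest of them just under castrated replicate 3 (-0.76 ± 0.19 log2, adjusted p = 0.0451). Bcl2l11, a BH3-only gene known to respond to growth factor withdrawal, was 6.79, 6.49, 6.68 and 6.56 in regenerated arrays, against 7.26, 7.17 and 7.37 in castrated arrays (-0.64 ± 0.14 log2, adjusted p = 0.0301). Its 2 groups were apart, and its intact arrays were 6.91, 6.89 and 6.71, with replicates 1 and 2 between the groups and replicate 3 within the regenerated range.

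Casp8 was 8.79, 8.81, 8.57 and 8.24 in regenerated arrays, below every castrated array and without a call (-0.70 ± 0.25 log2, limma adjusted p = 0.158). Pmaip1 was 4.31, 5.57, 4.47 and 4.63 in regenerated arrays, and replicate 2 was above the castrated arrays (-0.51 ± 0.26 log2, adjusted p = 0.325, or 0.0179 without replicate 2). Bid changed by -0.34 ± 0.11 log2 (adjusted p = 0.123), Bik by -1.19 ± 0.32 (0.0589) and Tnfrsf1a by -0.61 ± 0.17 (0.0707), each with no overlap of arrays. In the other direction, Bcl2l2 was 6.60, 6.71, 6.50 and 6.70 in regenerated arrays, against 6.24, 6.13 and 6.19 in castrated arrays (0.44 ± 0.13 log2, adjusted p = 0.0889). Bad and Hrk were also higher in every regenerated array than in any castrated array, by 0.26 and 0.13 log2, without a call. The inhibitors Xiap, Birc2 and Birc3 changed by -0.25, -0.03 and -0.50 log2 without passing. Bcl2 changed by 0.63 ± 0.27 log2 (adjusted p = 0.236) and Casp2 by 0.57 ± 0.30 (0.348), with overlapping arrays. Without regenerated replicate 4 these were 0.50 (0.342) and 0.87 log2 (0.0215).

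The calls of Casp4 and Tnfsf10 held with any 1 array left out. That of Bcl2l14 ended without castrated replicate 1, 2 or 3 or regenerated replicate 2 (limma adjusted p from 0.0537 to 0.0799). Mcl1 lost its call without intact replicate 1 or 2 or any 1 of castrated replicates 1 to 3 and regenerated replicates 1 to 3 (0.0627 to 0.112), and Bcl2l11 without intact replicate 1 or 2, castrated replicate 1, 2 or 3 or regenerated replicate 2 or 3 (0.0545 to 0.0979). Bok lost its call without intact replicate 1, 2 or 3, castrated replicate 1 or 2 or regenerated replicate 1, 2 or 3 (0.0641 to 0.162). The count of called regulators was 2 to 8 with 1 array left out, where 2.71% to 7.06% of all genes were called. Without regenerated replicate 4 the count was 8, with Bik lower and Casp2 higher added.

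Between regenerated and intact mice limma called none of the 35 regulators, and 11 of 30142 genes (0.0365%, 0.0332% higher and 0.00332% lower). An unadjusted p under 0.05 was reached by 3 regulators (8.57%), Bcl2, Casp8 and Diablo, and by 10% of all genes. Arrays of the 2 groups did not overlap in 3 regulators (8.57%, against 9.65% of all genes, 6.42% higher and 3.23% lower), with Bcl2 and Pmaip1 higher and Diablo lower. Bcl2 was 6.60, 7.72, 7.20 and 7.70 in regenerated arrays, against 6.18, 6.27 and 6.32 in intact arrays, a difference of 1.05 ± 0.27 log2 that did not pass (limma adjusted p = 0.269). All 4 regenerated arrays were above the intact ones, and castrated arrays, at 6.46, 6.56 and 7.02, were as well. Casp8 was 0.85 ± 0.25 log2 above intact arrays (95% interval 0.29 to 1.41, adjusted p = 0.283), with regenerated replicate 4, at 8.24, under intact replicate 3, at 8.31. Diablo was -0.43 ± 0.18 log2 from intact arrays (adjusted p = 0.453), and its 4 regenerated arrays, from 6.71 to 7.05, lay under the lowest intact array at 7.10. For Casp4 the interval ran from -0.42 to 1.82 log2, for Tnfsf10 from -0.26 to 0.21 and for Bcl2l14 from -1.0 to 1.09. Both Tnfsf10 means lie near the background median, where the narrow interval bounds no difference in expression. Pmaip1 was 0.56 ± 0.26 log2 above intact arrays (adjusted p = 0.505), its lowest regenerated array, 4.31, just above the highest intact array, 4.26. A moderated F-test over the 3 groups called 5 of 35 regulators (Casp4, Tnfsf10, Casp8, Bcl2l14 and Bok) and 6.51% of all genes.

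Other genes of cell death, from a list of 44 of which 38 were measured, are given for context. In castrated mice 5 of them rose and 2 fell (18.4%, against 8.01% of all genes). Tnf, the gene of tumour necrosis factor, was 7.10, 6.79 and 7.44 in castrated arrays, against 5.82, 5.37 and 5.11 in intact arrays (1.68 ± 0.24 log2, limma adjusted p = 0.00229). Siva1, a proapoptotic partner of a TNF receptor family member, changed by 1.69 ± 0.25 log2 (adjusted p = 0.00263). Castrated arrays were above intact arrays throughout for both genes, and both calls held with any 1 array left out. Casp12, the next gene after Casp4 on chromosome 9 in RefSeq, was 5.14, 6.02 and 7.10 in castrated arrays, against 4.23, 4.34 and 4.30 in intact arrays (1.79 ± 0.38 log2, adjusted p = 0.0164). The castrated arrays spread widely, and the call ended without intact replicate 1 or 2 (0.0686 and 0.0552).

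Cdkn1a, the p53-inducible cell cycle inhibitor p21, was 10.13, 10.22 and 11.44 in castrated arrays, against 8.81, 9.11 and 8.05 in intact arrays (1.94 ± 0.41 log2, limma adjusted p = 0.0167). The groups were apart, and the call ended without intact replicate 1 or 3 (0.0533 to 0.0583). Il18, an interleukin that inflammatory caspases process, changed by 1.26 ± 0.28 log2 (adjusted p = 0.0204), a call lost without intact replicate 1 or 2 or castrated replicate 2 or 3 (0.073 to 0.0817). Of the 2 genes that fell, Perp, a p53 target found in desmosomes, was -1.39 ± 0.30 log2 from intact arrays (adjusted p = 0.0184) and lost its call without intact replicate 1 or castrated replicate 1 or 2 (0.0629 to 0.0887). Tnfrsf21, the death receptor DR6, was -1.92 ± 0.49 log2 from them (adjusted p = 0.038) and lost its call without any 1 intact or castrated array or regenerated replicate 3 (0.0515 to 0.138). Gsdmd, the substrate of Casp4, changed by 0.15 ± 0.16 log2 (adjusted p = 0.681).

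In regenerated mice Tnf and Siva1 fell relative to castrated mice, by 1.91 and 1.29 log2 (limma adjusted p = 0.0011 and 0.011), and none of the 38 rose, so 5.26% were called against 4.98% of all genes. Without regenerated replicate 4, Tnfrsf21 (1.5 log2, adjusted p = 0.0103) and Perp (1.14 log2, 0.0347) were also called, both higher. The Siva1 call ended without castrated replicate 2 (0.0551). Cdkn1a was 10.26, 10.49, 10.21 and 9.56 in regenerated arrays, overlapping the castrated arrays and above every intact array. It differed by -0.47 ± 0.38 log2 from castrated arrays (adjusted p = 0.578) and by 1.47 ± 0.38 from intact arrays (adjusted p = 0.269). None of the 38 was called between regenerated and intact mice.

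**Figure D4:**
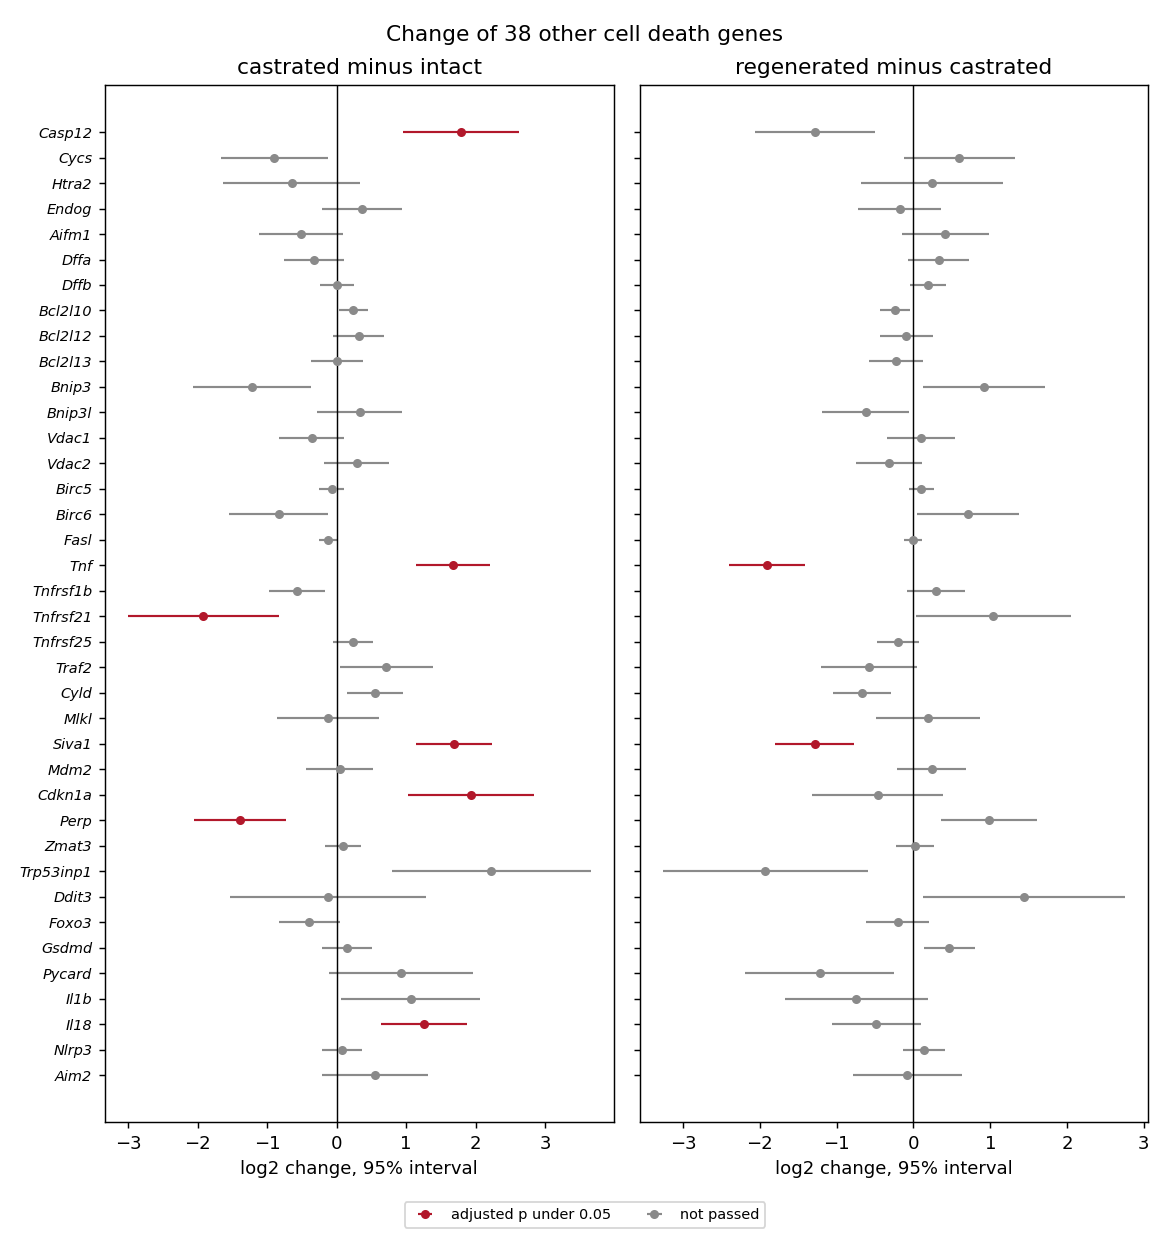
Fitted log2 change of 38 other cell death genes with its 95% interval, castrated minus intact on the left and regenerated minus castrated on the right, red where the adjusted p is under 0.05. On the left 5 red points lie above 0 and 2 below it, and on the right only Tnf and Siva1 are red, at -1.91 and -1.29.

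Leukocytes are also known to express inflammatory caspases and TRAIL, and markers of other cell types were read in the same arrays. Of 9 measured leukocyte markers, 8 had estimates above 0 in castrated against intact arrays, where 17626 of 30142 genes did. All 9 had estimates below 0 in regenerated against castrated arrays, where 16266 of all genes did. The 2 called in castrated mice were Itgam, which encodes CD11b of the sort gate, and Ctss. They rose by 0.38 ± 0.08 and 1.97 ± 0.40 log2 (limma adjusted p = 0.0181 and 0.014). The filter on low values removed Itgam from testing. Ctss lost its call without intact replicate 1 or 2 (0.0632 and 0.064) and Itgam without these or castrated replicate 2 (0.0667 to 0.0848). The summed linear intensity of the 9 markers was 508 to 910 in regenerated, 853 to 4306 in castrated and 413 to 1052 in intact arrays. In castrated replicates 1 and 2 the sum came mostly from Cd3e. Cd3e, a T cell receptor component, was 6.56, 5.73, 5.94 and 7.38 in regenerated, 11.32, 11.76 and 8.26 in castrated and 7.58, 8.18 and 5.40 in intact arrays. Castrated arrays were above all others, with limma adjusted p of 0.0507 against intact arrays (0.0455 without regenerated replicate 4) and 0.0253 for the fall in regenerated arrays (-4.04 ± 0.87 log2), a call lost without castrated replicate 1 or 2 or regenerated replicate 2 or 3 (up to 0.103). Ptprc, which encodes CD45, averaged 3.60 in regenerated, 3.63 in castrated and 3.64 in intact arrays, and the macrophage genes Adgre1 and Csf1r averaged 3.60 to 3.81, all within the background range. Of 6 basal markers, Krt17 and Krt14 rose by 1.31 ± 0.16 and 0.52 ± 0.14 log2 (adjusted p = 0.000875 and 0.046), and the Krt14 call ended without any 1 intact or castrated array or regenerated replicate 1 (0.0628 to 0.175). The summed linear intensity of the basal markers was 3037 to 17040 in regenerated, 1967 to 4562 in castrated and 1399 to 1604 in intact arrays. The highest sum came mostly from Krt15, at 14.02 log2 in regenerated replicate 2, whereas Krt5, Krt14, Krt17 and Itga6 had estimates of -0.45, -0.34, -1.15 and -1.41 log2 in regenerated against castrated arrays, of which only Krt17 passed. None of 4 endothelial markers was called, and of 5 stromal markers only Dcn, at -4.70 ± 0.61 log2 (adjusted p = 0.00143). The other 4 stromal markers had estimates above 0. In regenerated against castrated arrays Dcn was higher (3.83 log2, limma adjusted p = 0.00394) and the other 4 had estimates below 0. The part of other cells in the changes of Casp4, Tnfsf10 and Tnf was not tested.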

How the data were processed

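Expression was measured on 10 arrays in 3 groups named in the sample titles. The authors deposited log2 values for 72688 rows. The submitters' processing notes name RMA and Affymetrix Expression Console, without versions; the build behind the annotation was not given in the sources used here. Such scaling forces arrays to a common distribution, so a shift of all transcripts would be reduced. Array medians ran from 4.12 to 4.22, and precision is limited by there being 10 arrays.

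Gene names came from GEO's platform annotation, with 827 symbols brought up to date by gene identifier from RefSeq (GRCm38.p6). Of 65956 non-control rows, 30604 had 1 symbol, 2146 several and 33206 none listed. The highest-mean row was kept for each of 30142 genes. Limma 3.58.1 in R 4.3.3 (lmFit, eBayes with trend) was fitted over all 10 arrays with 3 groups and 7 residual degrees of freedom, two-sided, with Benjamini-Hochberg adjustment within a contrast. On simulated data for the castrated and intact contrast over 30142 genes, 68% of genes shifted by 1 log2 and 87% of those shifted by 2 log2 were recovered. At each size 100 genes were shifted, against 2414 called in the data, and 8 calls were false. These rates may differ where more genes change.

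Members and lists were chosen with earlier results of these data known. Named are all members, in full where called, with others of high level in their role, and up to 10 called genes of the other list with Cdkn1a; genes outside that rule were chosen after their values were seen. Promoters came from RefSeq. Alternatives were leaving out each array, a replicate block, array weights, a filter on low values, other eBayes settings, other scaling and other row choices.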

Additional observations from a re-analysis of the deposited data

Results flagged for a closer look

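In the 4 regenerated arrays, 2 of 35 regulators and 5 of 38 other cell death genes had 1 array whose gap to the nearest other, divided by the range of the group, exceeded Dixon's 95% critical value. Chance flags about 1 in 20 such groups. Tradd was 6.86 in regenerated replicate 4, against 7.63 to 7.65 in the other 3 (ratio 0.974). Casp2 was 6.83 in replicate 4, against 7.95 to 8.16 (ratio 0.843), and its difference from castrated arrays passed only without that array. In the same array Tnfrsf21 was 9.00, against 10.70 to 11.04 (0.833), Vdac2, a channel of the outer mitochondrial membrane, was 9.63, against 9.90 to 9.93 (0.896), and Aim2, a sensor of cytosolic DNA, was 5.42, against 4.05 to 4.10 (0.963). Bcl2l10 was 3.79 in replicate 1, against 4.02 to 4.05 (0.878), and Nlrp3 was 4.27 in replicate 2, against 3.72 to 3.79 (0.881), both within the range of background rows. Of the 7 flags, 5 fell on replicate 4, which also stood apart on the first principal component.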

How the results depend on the processing

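Over the 13 member calls and up to 20 alternatives each, 180 values kept direction and call, 75 kept direction and lost the call, and none reversed. Calls of regulators between castrated and intact mice (7) became 12 with array weights (14.1% of all genes) and 4 with each array centred on its median (7.53%). They were 4 with every non-control row tested (3.69%) and 3 to 10 with 1 array left out (3.38% to 10.9%). Between regenerated and castrated mice (6) they became 3 with only the 2 groups fitted (2.73% of all genes) and 3 with every non-control row (2.22%). With 1 array left out they were 2 to 8 (2.71% to 7.06%). Between regenerated and intact mice no alternative gave a call. The F-test count (5) became 8 with the filter on low values, 12 with array weights and 8 without the trend, and 2 to 8 with 1 array left out. The other cell death genes, 7 called between castrated and intact mice, were 12 with array weights and 2 to 10 with 1 array left out; between regenerated and castrated mice (2) they were 5 with the filter, 7 with array weights and 1 to 6 with 1 array left out; by F-test (6) they were 12 with array weights, 2 with every non-control row and 2 to 9 with 1 array left out. With the replicate number as a block, the other genes gave 11 and 6 calls, and regulators 8 and 4 (Pmaip1 lost, Bik and Casp2 gained; Mcl1, Bok and Bcl2l11 lost, Bik gained). Deviations of same-numbered arrays correlated from -0.16 to 0.26, and 5 of 18 matches were best with the own number. With 3 or 4 arrays in a group, this check cannot settle whether the numbers pair the samples. The filter removed Tnfsf10, Bok and Pmaip1 from testing. No share of all genes is given beside the alternative F-test and block counts, so these show nothing particular to the regulators. Where a cause is not evident from fewer samples or more rows, it was not tested. Signal near background limits 16 of 35 regulators.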
